A study of Mus musculus with 77 samples.

Results

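Replication profiles of single 4-cell blastomeres from the mEmb04C set were compared with those of single 8-cell blastomeres, all from mouse embryos produced by somatic cell nuclear transfer (SCNT). There the nucleus of a somatic cell is placed into an oocyte from which its own chromosomes were taken. The rule took the 4-cell profiles whose names start with mEmb04C and all 8-cell profiles, kept cells in the middle of S phase, with 30 to 70% of called autosomal bins replicated (mid-S cells), and averaged cells by embryo. It found 38 cells of the 77 in the series. They are 10 mid-S cells of 5 mEmb04C 4-cell embryos and 28 mid-S cells of 10 8-cell embryos. The other 16 4-cell cells, whose names start with DEP, were left out by the rule. Every embryo was of the BDF1 strain, was made by SCNT, and was cultured in vitro in CZB medium, so that both groups share the strain, the nuclear transfer and the culture. No fertilized embryos were used here, and the sources used here do not name the donor cell of the nuclei. The 8-cell embryos come from the title sets DEP_01_162 (12 mid-S cells of 4 embryos) and DEP_01_164 (16 mid-S cells of 6 embryos).

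Stage and set are confounded in this comparison. In the authors' annotation all 10 mEmb04C cells lie in 1 batch and all 28 8-cell cells in 1 other, with 0 batches shared, so stage, set and batch cannot be told apart in any value below. The embryo is the replicate throughout, because cells of one embryo are not independent. An embryo gave 1 to 4 mid-S cells at the 4-cell stage and 1 to 7 at the 8-cell stage. Two-sided exact permutation tests over embryos went through all ways of choosing 5 of the 15 embryos, and the smallest p they can give is 0.000333.

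In S phase a cell copies its genome in a set order. Neighbouring origins fire together and form replication domains, which are early or late as a unit, and early domains tend to be rich in active genes while late ones tend to be gene-poor and bound to the nuclear lamina. Single-cell Repli-seq reads this order from DNA copy number, since a replicated region has more copies than an unreplicated one in the same cell. After fertilization and after nuclear transfer the cleavage stages are the time in which the embryo takes over control from oocyte factors and in which replication domains are set up anew.

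The deposited profiles give 1 state, replicated, unreplicated or no call, in each of 32973 bins, 80 kb long and placed on mm9. Among the mid-S cells, 29527 to 29704 of 30890 autosomal bins were called at the 4-cell stage and 28701 to 29757 at the 8-cell stage. The authors' noise score was 0.604 ± 0.04 (SD, n = 5 embryos) and 0.608 ± 0.056 (SD, n = 10), and its difference was smaller than the spread between embryos (exact permutation test, p = 0.905). No read depth could be given, since reads or copy numbers are not part of the profiles.

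The rule kept cells by their replicated percent, so both groups lie near the middle of S phase by choice. Single mid-S cells had 37.6 to 61.9% of autosomal bins replicated (median 52.2%), and the 8-cell cells had 30.1 to 69.4% (median 49.5%). By embryo the mEmb04C means were 52.6% in embryo 9, 54.9% in embryo 10, 46.9% in embryo 11, 49.9% in embryo 13 and 38.2% in embryo 14. Embryo 14, which gave 1 cell, was the lowest. The group means were 48.5% ± 6.5 (SD, n = 5) and 49.7% ± 8.09 (SD, n = 10), a difference of 1.15 percentage points, well within the SD of either group (exact permutation test, p = 0.785). Since the cells were chosen by this same percent, the test cannot say whether the groups differ in their position in S phase. Outside the mid-S range lay 1 mEmb04C cell below and 1 above, and 6 8-cell cells below and 15 above. With all S-phase cells the embryo means were 47.2% ± 18.9 (SD, n = 7) and 54.4% ± 16.6 (SD, n = 12; exact permutation test, p = 0.399).

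Sister blastomeres of an embryo did not share 1 position in S phase. Over all S-phase cells, the highest and lowest mEmb04C cells differed by 6.25 points in embryo 10, by 16.5 points in embryo 11 and by 24.4 points in embryo 13. The 11 8-cell embryos with more than 1 cell spanned 6.43 to 71.3 points, with a median of 40.4. These spans are a description, since an 8-cell embryo gave up to 8 cells and a span grows with the number of cells. All 4 cells of embryo 13 were mid-S. They stood at 37.6, 39.6, 60.6 and 61.9%, as pairs of like percent. The phi coefficient, a correlation of the binary states of a pair of cells, was 0.527 and 0.56 within these pairs and 0.439 to 0.47 across them, where the percent itself also differed.

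**Figure D1:**
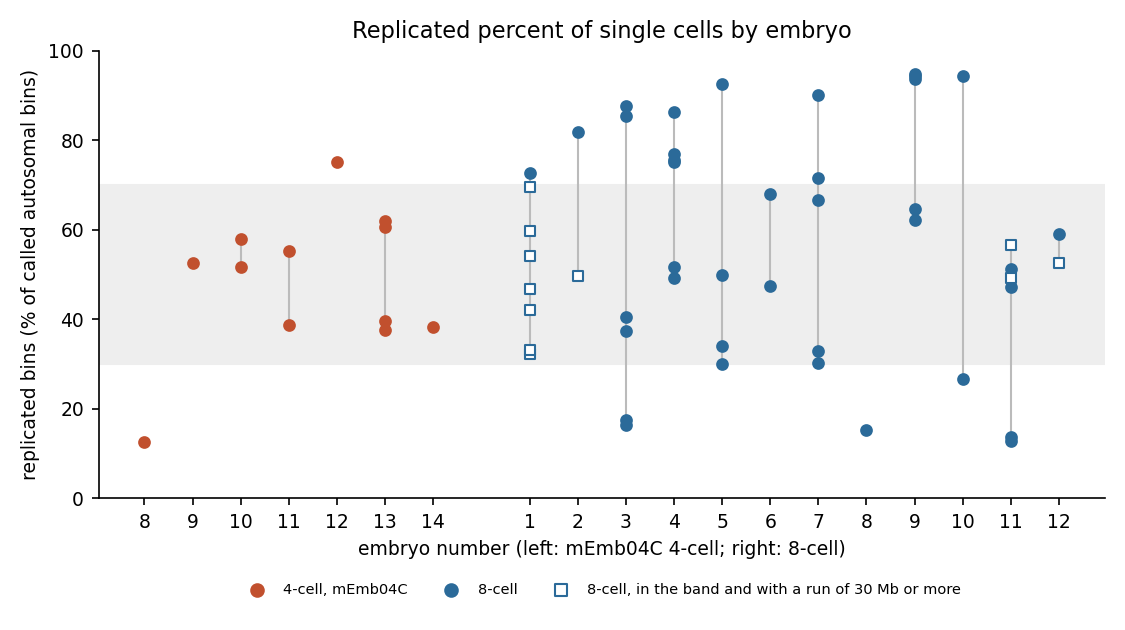
Replicated percent of called autosomal bins (y axis) of every S-phase cell of both groups, by embryo (x axis). Each symbol is 1 cell, grey lines join the cells of an embryo, the grey band is the mid-S range of 30 to 70%, and open squares are the 11 8-cell cells in the band that hold an uninterrupted run of 30 Mb or more in 1 state. The mEmb04C cells in the band lie between 37.6 and 61.9%.

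Some 8-cell cells stand apart and are named here before the results that rest on them. They hold an uninterrupted run of called bins in 1 state that is at least 30 Mb long on an autosome or on X, a length set after the data had been seen. Among mEmb04C mid-S cells 0 of 10 had such a run, and their longest was 22.2 Mb. Outside the mid-S range, the mEmb04C cells of embryo 8 (12.6% replicated) and embryo 12 (75% replicated) held autosomal runs of 146 and 57 Mb. The rule also left out the DEP 4-cell cells because most hold long blocks. The counts of cells with long runs therefore cannot compare the stages. At the 8-cell stage 11 of 28 mid-S cells of 4 embryos had one, and the longest, an unreplicated run on chromosome 9 in embryo 12, was 121 Mb. The 11 are all 7 mid-S cells of embryo 1, the only mid-S cell of embryo 2, 2 of the 4 cells of embryo 11 and 1 of the 2 of embryo 12. Chromosome 19 was in a single state over 43.4 to 44.8 Mb in 5 runs of embryo 1, and chromosome 12 held unreplicated runs of 71 and 30.2 Mb in embryo 2. These 11 cells had a median noise score of 0.677, against 0.578 in the other 17 8-cell cells, and a median of 29125 called autosomal bins, against 29696. Without them 17 cells of 8 8-cell embryos are left. The permutation tests then have 1287 splits and a smallest p of 0.000777, and results are given with and without these cells. The removal takes cells of the 8-cell group alone, by a length set after the data had been seen. Passes and p-values without these cells are therefore given as a description for windows, chromosomes and ends.

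The first comparison asked whether replication domains differ in size. In the group means, 8-cell embryos had more changes of state along the genome than mEmb04C embryos and shorter median runs of both states. These differences did not pass the adjusted threshold of 0.05. Values without the 11 cells with long runs are given as a description with no test, since that removal takes cells of the 8-cell group alone by the length of their runs, which is the quantity measured here. The mEmb04C embryos had 44.9 (embryo 9), 56.9 (embryo 10), 63.1 (embryo 11), 60.7 (embryo 13) and 59.4 (embryo 14) changes of state per 1000 called autosomal bins. The 10 8-cell embryos ran from 52.4 to 82.5, with a median of 67.7. Embryo 9 was the lowest of all 15, and 8-cell embryos 1 and 2, in which every mid-S cell holds a long run, were the only 8-cell embryos within the range of the mEmb04C group.

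The means were 57 ± 7.1 (SD, n = 5) and 68.5 ± 9.82 (SD, n = 10) changes per 1000 bins, a difference of 11.5 (exact permutation test, p = 0.038, adjusted over the 3 measures p = 0.0944). Without the cells with long runs the 8-cell mean was 73.1 ± 6.55 (SD, n = 8). The difference was then 16.1, with 66.2 to 82.5 at the 8-cell stage against at most 63.1, a gap that follows from the removal of embryos 1 and 2. Leaving out 8-cell embryo 2, whose only mid-S cell holds long runs, gave a difference of 13.3 (exact permutation test, adjusted p = 0.036). It was the only embryo whose removal gave a pass. For the others the adjusted p ran from 0.0614 to 0.276, the highest without mEmb04C embryo 9, where the difference was 8.52. The embryos of set DEP_01_164 alone gave a difference of 14.9 (exact permutation test, adjusted p = 0.00649). Against those of set DEP_01_162 alone, which holds embryos 1 and 2, it was 6.49 (exact permutation test, adjusted p = 0.54).

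The difference was spread over the chromosomes. All 19 autosomes had more changes of state at the 8-cell stage, by 3.58 to 16.8 per 1000 bins with a median of 11.6. With the cells with long runs left out these values were 10.5 to 21.9, with a median of 16.4. Chromosomes of one cell are not independent, so these are a description.

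Replicated runs had a median length of 0.884 Mb ± 0.161 (SD, n = 5) in mEmb04C embryos and 0.763 Mb ± 0.164 (SD, n = 10) in 8-cell embryos, a difference of -0.121 Mb (exact permutation test, adjusted p = 0.196). Unreplicated runs had 0.932 Mb ± 0.138 and 0.772 Mb ± 0.143, a difference of -0.16 Mb (exact permutation test, adjusted p = 0.0944). Without the cells with long runs, and so with the longest runs taken out of the 8-cell group alone, the differences were -0.186 Mb and -0.197 Mb.

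By size class, runs under 2 Mb held more of the called bins at the 8-cell stage in both states. Replicated runs under 0.5 Mb held 3.11% ± 0.82 of called bins in mEmb04C embryos (SD, n = 5) and 4.6% ± 1.48 in 8-cell embryos (SD, n = 10). Unreplicated runs under 0.5 Mb held 3.18% ± 0.682 and 4.53% ± 1.07. Unreplicated runs of 1 to 2 Mb held 11.3% ± 0.824 and 13.3% ± 1.96. Of the longer runs, unreplicated ones of 2 to 5 Mb held 20.3% ± 4.12 in mEmb04C embryos and 17.3% ± 4.58 in 8-cell embryos, and those of 5 to 10 Mb held 9.51% ± 2.73 and 6.41% ± 3.59. Unreplicated runs over 10 Mb went the other way, with 1.44% ± 0.653 and 2.06% ± 1.73, or 0.835% ± 1.1 (SD, n = 8) without the cells with long runs. Replicated runs of 2 to 5 Mb, the class that held most replicated bins, were alike in both groups, with 16.9% ± 2.61 and 16.9% ± 4.65. No test was run on single classes.

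**Figure D2:**
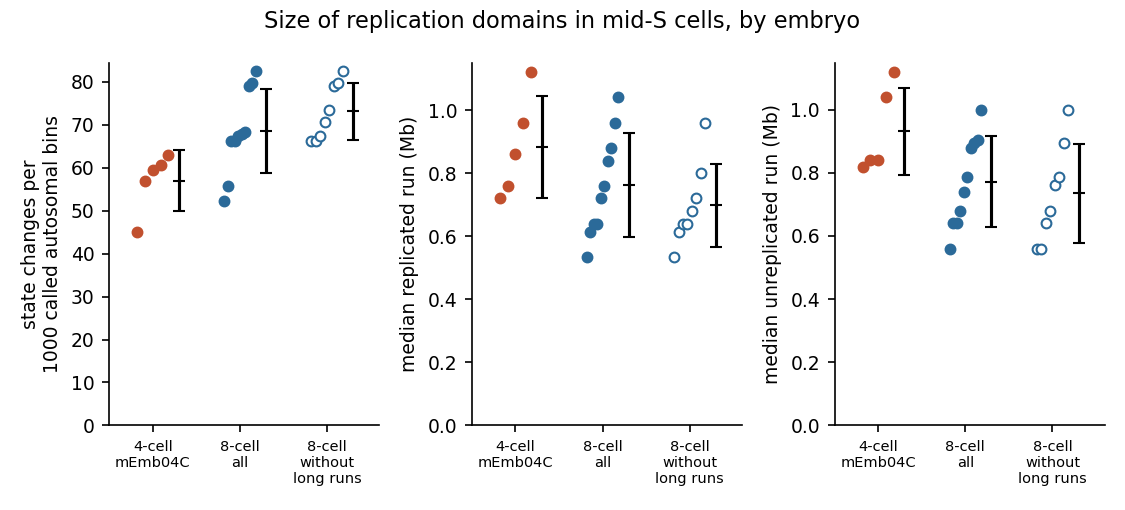
Changes of state per 1000 called autosomal bins and median lengths of replicated and unreplicated runs in Mb (y axes) for the mEmb04C embryos, all 8-cell embryos and the 8-cell embryos without cells holding runs of 30 Mb or more. Each point is 1 embryo, and bars show the mean and SD. The mEmb04C embryos lie between 44.9 and 63.1 changes, and the 8-cell embryos without such cells, which leaves out the 2 lowest, between 66.2 and 82.5.

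The next comparison asked how closely a cell follows the replication order of the 8-cell stage. The mean profile of the 8-cell embryos, with the cell's own embryo left out, ranked the bins, and the area under the curve (AUC) gave the chance that a replicated bin of the cell ranked above an unreplicated one. It is 1 for a cell that follows the order exactly. Over 24470 autosomal bins called in every mid-S cell, the mEmb04C embryos reached 0.931 (embryo 9), 0.89 (embryo 10), 0.892 (embryo 11), 0.876 (embryo 13) and 0.818 (embryo 14). The 8-cell embryos ran from 0.868 to 0.946, with a median of 0.929. Embryo 9 lay above the 8-cell median and embryo 14 below all other embryos, so the groups overlapped.

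The AUC was lower in mEmb04C embryos, at 0.882 ± 0.041 (SD, n = 5) against 0.921 ± 0.0256 (SD, n = 10), a difference of 0.0395 (exact permutation test, p = 0.0157). The difference was 0.054 when cells with long runs were left out, over 28825 bins called in every cell left. That removal takes cells of the 8-cell group alone, so this value is a description with no test. With all cells the difference rests in part on embryo 14: without that embryo it was 0.0236 (exact permutation test, p = 0.105). It also did not pass with cells of 40 to 60% replicated (0.0231, exact permutation test, p = 0.121) or against set DEP_01_162 alone (0.0289, exact permutation test, p = 0.198). Since the 8-cell profile comes from the batch of the 8-cell cells, batch and stage cannot be told apart here either.

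Pairs of cells whose replicated percent differed by at most 5 points give a view without a reference profile. Between mEmb04C cells of different embryos the median phi was 0.541 over 11 pairs, between 8-cell cells of different embryos 0.613 over 79 pairs, and between an mEmb04C and an 8-cell cell 0.536 over 59 pairs. The first and the last of these medians differed by less than the range within either set of pairs. Within an embryo the median was 0.544 over 2 mEmb04C pairs, both of embryo 13 and given above, and 0.703 over 10 8-cell pairs. Without the cells with long runs, the median was 0.647 over 24 pairs of 8-cell cells of different embryos and 0.708 over 6 pairs within an embryo. Between an mEmb04C and an 8-cell cell it was then 0.538 over 34 pairs. Pairs share cells, so these values are a description.

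The order of replication along the genome was largely common to both groups. Over 2381 autosomal windows of 1 Mb, the mean replicated percent of mEmb04C embryos and that of 8-cell embryos correlated across windows with Pearson's r = 0.921 and Spearman's rho = 0.915, a description, since neighbouring windows are not independent. The means lay within 10 points of each other in 61.9% of windows and more than 30 points apart in 70 windows (2.94%). Of the 594 windows that were at least 80% replicated in mEmb04C embryos, 489 (82.3%) were so at the 8-cell stage too. Of the 665 windows that were at most 20% replicated, 472 (71%) remained so. Among these autosomal windows 1 went from the early to the late class, and 0 went from late to early.

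With the replicated percent of the embryo as a term, 16 of 2536 windows (0.631%) passed an adjusted p of 0.05 in limma, 11 with a lower replicated percent (later) at the 8-cell stage and 5 with a higher one (earlier). At an unadjusted p of 0.05 there were 364 (14.4%). Without the cells with long runs 55 of 2535 windows (2.17%) passed, 31 later and 24 earlier, and 14 of the 16 were among them. That fit takes cells from the 8-cell group alone and shares its embryos with the first, so it is no independent support. With single embryos left out, the count was 61 without 8-cell embryo 2 and 7 without mEmb04C embryo 10, so it rests on single embryos. The same fit between both 8-cell sets called 0 of 2481 windows (0%) in limma, with 188 (7.58%) at an unadjusted p of 0.05. This says what sets differ by within 1 stage and 1 batch, with 4 against 6 embryos, and cannot stand for the mEmb04C batch. Between the groups, the values of all embryos did not overlap in 9 windows (0.355% of those tested), and 7 of these are among the 16. The 11 later windows lie on chromosomes 2, 4, 5, 6, 12 and X, with 4 on chromosome 4 (150 windows tested) and 3 on chromosome 5 (148 tested). The 5 earlier ones lie on chromosomes 2, 4, 6, 13 and 18.

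**Figure D3:**
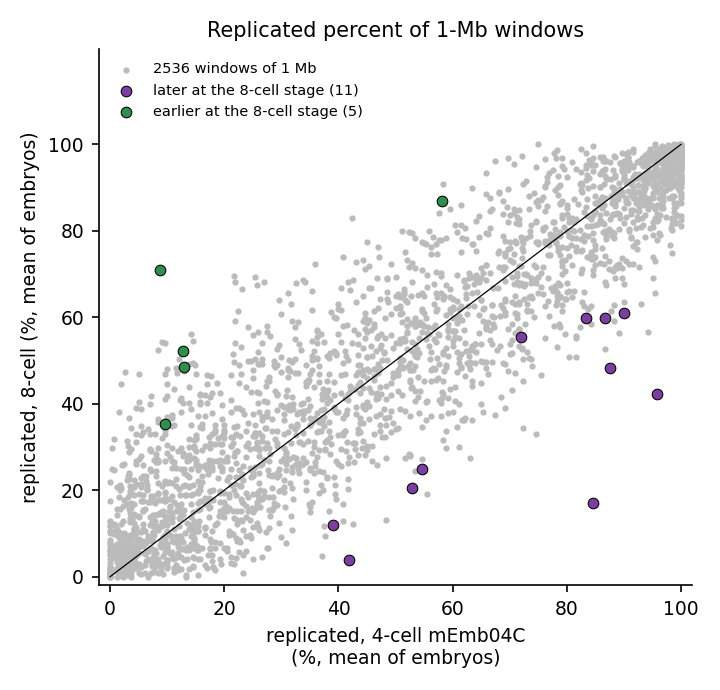
Mean replicated percent of 1-Mb windows in mEmb04C 4-cell embryos (x axis) and in 8-cell embryos (y axis), with 1 grey point for each of 2536 windows and the line of equal values. Coloured points are the 16 windows that passed the limma test, 11 later and 5 earlier at the 8-cell stage. Most windows lie near the line, and the called window farthest below it fell from 84.6 to 17.1%.

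The largest difference was at chromosome 5 from 127000001 to 128000000, the 1 window that went from the early to the late class. The mEmb04C embryos had 76.9% (embryo 9), 100% (embryo 10), 73.1% (embryo 11), 73.1% (embryo 13) and 100% (embryo 14) of its bins replicated. The 8-cell embryos ran from 7.69 to 61.5%, with a median of 11.5%. All 10 8-cell embryos lay below all 5 mEmb04C embryos, and embryo 4 was the highest of them. In the limma fit the difference was -67.3 points ± 8.63 (SE, adjusted p = 0.00194). Around it, adjacent bins differed by at least 20 points over 2.0 Mb, from 126160001 to 128160000. Its 4 neighbouring windows had means of 82.3% in mEmb04C embryos and 67.3% in 8-cell embryos.

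Another early region on chromosome 4, from 152000001 to 153000000 near the far end, was at 100% in mEmb04C embryos 9, 10, 11 and 14 and at 79.2% in embryo 13. The 8-cell embryos ran from 13.9 to 79.2%, with a median of 34.4%, so the groups met only at 79.2%. This gave -55.5 points ± 9.35 (SE) in the limma fit, with an adjusted p of 0.0135.

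In the opposite direction, chromosome 18 from 70000001 to 71000000 was at 0% in mEmb04C embryos 9, 11 and 14, at 20.8% in embryo 10 and at 22.9% in embryo 13. At the 8-cell stage it ran from 54.2 to 95.8%, with a median of 65.3%. The groups were far apart, and the limma fit gave 61.3 points ± 7.66 (SE), with an adjusted p of 0.00194. Its 4 neighbouring windows averaged 24.1% in mEmb04C embryos, above the window's own 8.75%, and 34% in 8-cell embryos, below its 70.9%. Around the window 1.52 Mb of adjacent bins were earlier at the 8-cell stage by at least 20 points.

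These 3 windows passed in all 15 fits that left out 1 embryo each. The same held for chromosome 4 from 85000001 and chromosome 5 from 134000001.

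On chromosome 4 the other 3 windows that were later at the 8-cell stage ran from 121000001, 85000001 and 130000001. The first was at 75 to 100% in mEmb04C embryos and at 25 to 73.7% in 8-cell embryos, with no overlap (fitted difference -39.4 points; limma, adjusted p = 0.047). It passed in 4 of the 15 fits without 1 embryo. The second was in the middle of the range in mEmb04C embryos, at 61.5, 19.2, 30.8, 36.5 and 61.5% in embryos 9, 10, 11, 13 and 14. At the 8-cell stage it was at most 11.5% in every embryo (fitted difference -37.9 points; limma, adjusted p = 0.0135). The third had 66.7 to 100% and 50 to 69%, which overlap (-27.7 points in the fit, with an adjusted p of 0.0221 in limma).

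On chromosome 5 the window from 134000001 was at 79.2 to 100% in mEmb04C embryos and at 45.8 to 75% in 8-cell embryos, without overlap (fitted difference -28.7 points; limma, adjusted p = 0.0135). The difference sat in a stretch of 0.64 Mb, and at its most different bin the means were 80% and 4.76%. The window of this chromosome from 141000001 differed by -17.3 points (limma, adjusted p = 0.047) and passed in 2 of the 15 fits without 1 embryo.

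The other later windows were on chromosomes 12, X, 6 and 2. At chromosome 12 from 12000001 the means were 52.9% and 20.6%, and without the cells with long runs it did not pass (limma, adjusted p = 0.0653). It passed in 5 of the 15 fits without 1 embryo. At X from 36000001 the means were 54.6% and 24.8%, with the difference narrowed to 0.24 Mb. At chromosome 6 from 123000001 they were 39.1% and 12%, and at chromosome 2 from 4000001 they were 83.3% and 59.8%.

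Earlier at the 8-cell stage were 4 more windows. At chromosome 6 from 58000001 the mEmb04C embryos had 8.33, 16.7, 16.7, 22.9 and 0% in embryos 9, 10, 11, 13 and 14, and the 8-cell embryos had 25 to 75%, all above them (fitted difference 33.9 points; limma, adjusted p = 0.0135). Chromosome 4 from 104000001 had 0 to 18.8% and 25 to 45.8%, also without overlap (fitted difference 25 points; limma, adjusted p = 0.0135). In its most different bin the means were 30% and 100%, within a stretch of 0.64 Mb. Chromosome 13 from 5000001 had 0 to 25% and 15.4 to 80.8% (fitted difference 38.2 points; limma, adjusted p = 0.047), and it did not pass without the cells with long runs (adjusted p = 0.0617). It passed in 3 of the 15 fits without 1 embryo. Chromosome 2 from 65000001, at 58.1% and 86.9% in the mean, passed in 4 of the 15 fits. Its 4 neighbouring windows were late in both groups, with means of 19.3% in mEmb04C embryos and 17.2% in 8-cell embryos. The most different bins were chosen for their values and are given as a description.

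**Figure D4:**
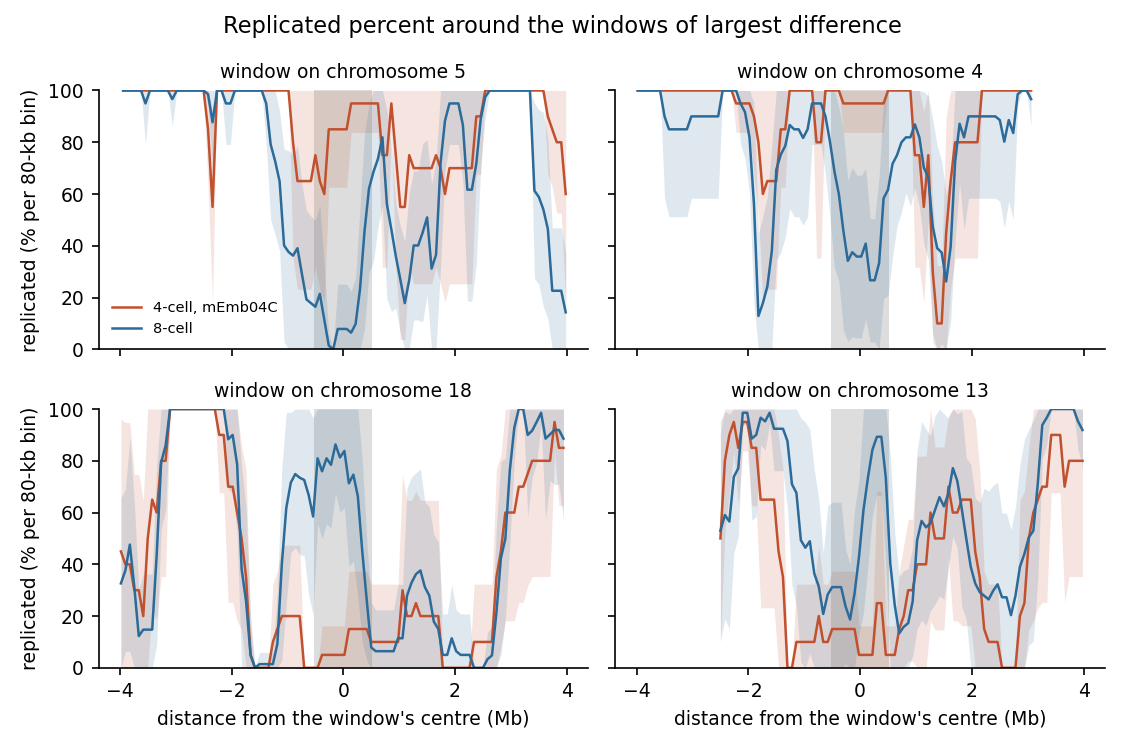
Replicated percent of 80-kb bins (y axis) by distance from the centre of the window in Mb (x axis), for the 2 windows with the largest fitted difference in each direction, on chromosomes 5, 4, 18 and 13. Lines are means over embryos, shaded bands are 1 SD limited to 0 to 100%, and the grey stripe is the 1-Mb window. On chromosome 5 the 8-cell line drops inside the stripe where the mEmb04C line stays high, and on chromosome 18 the 8-cell line rises where the mEmb04C line stays low.

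The windows that passed only without the cells with long runs add further regions in both directions. The 5 with the largest fitted difference in each direction among those not called with all cells are given. Earlier at the 8-cell stage were chromosome 5 from 82000001, with means of 21.7% and 80.4%, chromosome 16 from 24000001 (9.17% and 61.1%), chromosome 9 from 92000001 (8.33% and 62.8%), X from 123000001 (2.69% and 53.7%) and chromosome 6 from 15000001 (9.62% and 60.9%). With all cells their differences kept the direction, at 41.6 to 46.4 points, but did not pass (limma, adjusted p from 0.0757 to 0.154). Later were 3 windows on chromosome 5, from 131000001 (74.6% and 34.3%), 146000001 (89.2% and 49.5%) and 22000001 (60.8% and 30.2%), and 1 each on chromosome 8 from 121000001 (69.2% and 35.1%) and chromosome 6 from 121000001 (65% and 35.3%). In this fit chromosome 4 held 10 of the 55 windows, 9 of them later, with 150 windows tested on it. Chromosome 5 held 9, 7 of them later, with 148 tested. Whether called windows gather on these chromosomes was not tested.

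Whole chromosomes were compared as the replicated percent of the chromosome minus that of the cell's autosomes, so that 0 is the genome's own pace. Of 20 chromosomes 0 (0%) differed between the groups after adjustment (exact permutation tests, smallest adjusted p = 0.193), and 2 did at an unadjusted p of 0.05, chromosomes 3 and 6. Leaving out the cells with long runs, 0 passed as well (smallest adjusted p = 0.0777, for chromosomes 4 and 10). In both groups chromosome 11 ran ahead, at 15.3 ± 2.3 (SD, n = 5) and 11.3 ± 7.4 points (SD, n = 10), and chromosomes 14 and 3 ran behind.

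Chromosome 6 lay behind in all mEmb04C embryos, at -5.65, -10.9, -8.65, -3.86 and -10 points in embryos 9, 10, 11, 13 and 14. The 8-cell embryos ran from -6.92 to -2.42, with a median of -3.03. All 10 8-cell embryos were above the mEmb04C mean of -7.82, and the difference was 3.76 points (exact permutation test, p = 0.00966, adjusted p = 0.193).

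Chromosome 3 had -11.3, -13.1, -14.5, -11 and -3.09 points in the mEmb04C embryos and -9.73 to -3.59 in the 8-cell embryos. Embryo 14 stood above all 8-cell embryos and the other 4 below all of them. Without embryo 14 chromosome 3 was the 1 chromosome that passed (exact permutation test, adjusted p = 0.02). With it the difference was 3.93 points (exact permutation test, p = 0.0353, adjusted p = 0.35).

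Chromosome 4 holds 5 of the 16 windows, with 150 windows tested on it. It was at 3.2 ± 2.93 points in mEmb04C embryos (SD, n = 5) and at -2.78 ± 6.81 in 8-cell embryos (SD, n = 10; exact permutation test, adjusted p = 0.35). All 5 mEmb04C embryos were above 0, from 0.532 to 7.22, and the 8-cell embryos ran from -21.4 in embryo 2 to 2.33. Without the cells with long runs the difference was -4.43 points (exact permutation test, p = 0.00544, adjusted p = 0.0777).

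The differences of chromosomes 12 and 9, at -8.07 and -6.07 points, rested on single embryos. Chromosome 12 stood at -49.3 points in 8-cell embryo 2 and at -3.79 to 0.16 in the other 9, and chromosome 9 at -27 in 8-cell embryo 12. Leaving out that embryo gave -3.3 points for chromosome 12 and -2.97 points for chromosome 9. In the mEmb04C group chromosome 12 was at 15.2 points in embryo 14, which holds no long run, and at -3.63 to 1.36 in the others. Leaving out embryo 14 gave a difference of -4.68 points.

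The X chromosome was behind the autosomes in all mEmb04C embryos, at -22, -6.98, -17.4, -12.7 and -15.4 points in embryos 9, 10, 11, 13 and 14. The 8-cell embryos ran from -22.9 to 5.83, with a median of -13.2. Embryos 9, 11 and 12 of set DEP_01_164 stood at -0.441, 5.83 and 3.25, above all mEmb04C embryos, as did embryo 6 at -5.21. The difference in means was 5.27 points, less than the SD of either group (exact permutation test, p = 0.291, adjusted p = 0.389). It was -3.41 against set DEP_01_162 alone and 11.1 against set DEP_01_164 alone. The sources used here do not give the sex of the embryos.

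**Figure D5:**
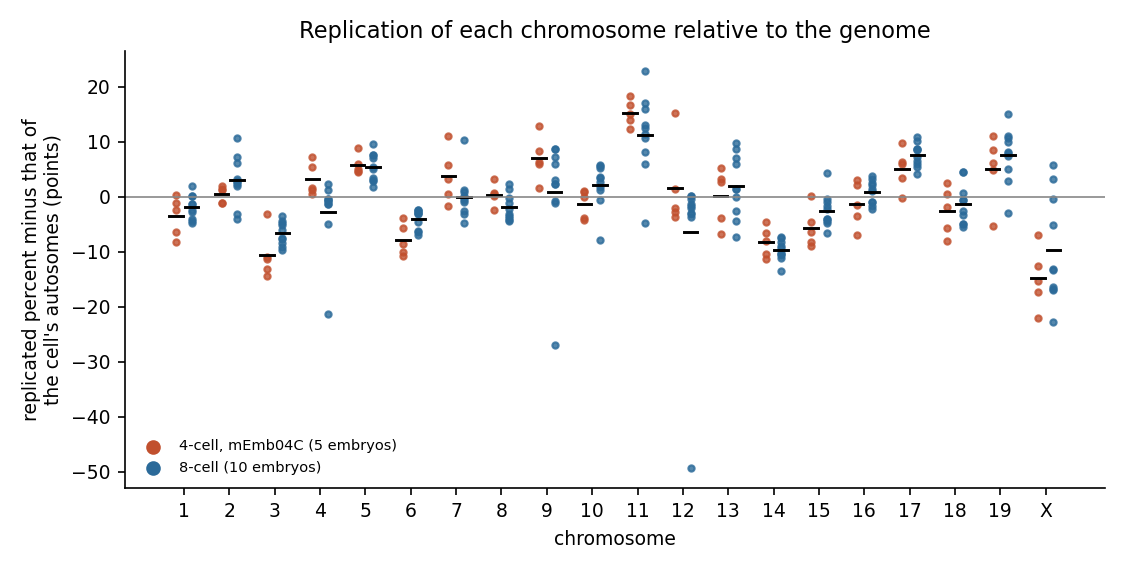
Replicated percent of each chromosome minus that of the same cell's autosomes, in percentage points (y axis), by chromosome (x axis) for 5 mEmb04C and 10 8-cell embryos. Each point is 1 embryo and black bars are group means. The low 8-cell points are embryo 2 on chromosomes 12 (-49.3) and 4 (-21.4) and embryo 12 on chromosome 9 (-27).

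Chromosome ends were taken as the outermost 10 Mb with called bins. Mouse chromosomes carry the centromere at the low-coordinate end and a telomere far from it at the other. The far ends of the autosomes replicated ahead of the cell's genome in both groups, by 7.6 ± 2.79 points in mEmb04C embryos (SD, n = 5) and by 6.69 ± 3.01 points in 8-cell embryos (SD, n = 10). The mEmb04C values were 12.2, 6.81, 7.46, 6.78 and 4.71 in embryos 9, 10, 11, 13 and 14. The difference was smaller than the spread between embryos (exact permutation test, p = 0.583). The low-coordinate ends stood at -1.61 ± 2.37 and -0.226 ± 2.36 points (exact permutation test, p = 0.292). Both differences changed sign or passed an unadjusted threshold with the set: against DEP_01_162 alone they were 1.89 and -1.08 points, and against DEP_01_164 alone -2.78 and 3.02 points (exact permutation tests, p = 0.317, 0.437, 0.0433 and 0.0346).

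In steps of 5 Mb from the far end, both groups were ahead of the genome out to 30 Mb. The widest gap between them was at 10 to 15 Mb, with 5.68 ± 1.6 points in mEmb04C embryos and 1.31 ± 2.89 points in 8-cell embryos, given without a test.

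Of the 40 single ends, 2 (5%) passed after adjustment with all cells, and 2 (5%) without the cells with long runs. At an unadjusted p of 0.05 there were 7 and 9. The low-coordinate end of chromosome 8 passed in both with ends of 10 Mb, and did not with ends of 5 Mb (exact permutation test, adjusted p = 0.343) or 20 Mb (adjusted p = 0.113). It was at -4.23, -6.72, -5.34, -7.55 and -8.56 points in mEmb04C embryos 9, 10, 11, 13 and 14 and ran from -16 to -8.99 at the 8-cell stage, with a median of -13.1. The groups did not overlap, and the 8-cell stage was later by 5.89 points (difference -5.89, exact permutation test, p = 0.000333, the smallest this design can give, adjusted p = 0.0133; without the cells with long runs adjusted p = 0.0311).

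The low-coordinate end of chromosome 13 was earlier at the 8-cell stage. It stood at -4.23, 3.11, -13.7, -6.29 and -11.8 points in mEmb04C embryos 9, 10, 11, 13 and 14 and at -1.45 to 11.1 in 8-cell embryos. Embryo 10 alone overlapped the 8-cell range, and the difference was 11.1 points (exact permutation test, adjusted p = 0.0333). It was 11.7 points without the cells with long runs and did not pass (exact permutation test, adjusted p = 0.0673), and the same held with ends of 20 Mb (6.18 points, adjusted p = 0.425). Nor did it pass with 20 to 80% replicated (8.94 points, adjusted p = 0.105) or against DEP_01_162 or DEP_01_164 alone (adjusted p = 0.464 and 0.0618). Without mEmb04C embryo 9, 11, 13 or 14 the adjusted p was 0.0533 to 0.0999. This end lost its pass in 11 settings and kept it in 12. The window at chromosome 13 from 5000001, described above, lies in this end. The far end of the same chromosome had a difference of 13.8 points, from -12.9 ± 9.59 to 0.894 ± 6.59, which did not pass (exact permutation test, adjusted p = 0.0577).

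The far ends of chromosomes 5 and 4 were the earliest of all single ends in mEmb04C embryos, at 44.5 ± 4.82 and 41.7 ± 2.15 points (SD, n = 5). At the 8-cell stage they were at 34.4 ± 6.11 and 29.2 ± 12.6 points (SD, n = 10). For chromosome 5 the difference of -10.1 points did not pass with all cells (exact permutation test, adjusted p = 0.0746) and passed without the cells with long runs (-11.8 points, adjusted p = 0.0311). For chromosome 4 the mEmb04C embryos lay within 38.9 to 44.7 points. The 8-cell embryos ran from -2.39 in embryo 2 to 42, and the difference of -12.5 points did not pass (exact permutation test, adjusted p = 0.188). The window at chromosome 4 from 152000001 lies in this end. The other ends of large difference, the far end of X (11.9 points) and the low-coordinate end of chromosome 12 (-10 points, with embryo 2 at -49.8), did not pass (exact permutation tests, adjusted p = 0.459 for each).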

How the data were processed

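Blastomeres were picked singly with a micromanipulator and sequenced after whole-genome amplification, per the labels' protocols. The authors deposited 1 profile of replication states per cell, coded 1, -1 or 0 in 80-kb bins, per the file headers, a replication score in percent and a noise score (median absolute deviation). Bin positions are in mm9 (per the submitters' processing notes); the sources used here name no aligner or caller. The state 1 was read as replicated, because its share among called autosomal bins matches the deposited percent to within 4.98e-09. Profile columns that matched no sample numbered 0.

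Cell values were averaged per embryo of the authors' annotation. Windows of 1 Mb needed at least 6 called bins per cell in at least 4 mEmb04C and 8 8-cell embryos. The model, with the embryo's replicated percent beside stage, was fitted in limma 3.58.1 (R 4.3.3), and p-values were adjusted by Benjamini-Hochberg over all windows. Other comparisons used exact permutation tests, adjusted over 20 chromosomes, 40 ends or 3 domain measures. P-values set the group difference against the variation between embryo means, which also holds variation between cells. The rest was done in Python 3.11.15 with pandas 2.3.3, numpy 2.4.6 and scipy 1.17.1, and the plots with matplotlib 3.10.9. On simulated data with 5 against 10 embryos and 2536 windows, the window test found 29% of the changes of 20 points and 68% of the changes of 40 points. It made 98 calls, and 1 was false. In those data 100 windows had a change of 20 points, 100 had a change of 40 points and 2336 had none. Whether these rates hold for the deposited profiles, where 16 windows were called, was not tested.

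Regions were named by a rule: up to 10 passing windows in each direction by fitted difference, and chromosomes and ends that passed or were among the 3 largest differences in each direction, and X. The window at chromosome 5 from 141000001, chromosomes 10, 11 and 14 and the windows called only without cells with long runs lie outside it and were chosen after their values were seen. The groups and measures were chosen with earlier results of these data known. Gene names and sequences were not used here, because the reference tables are of another build.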

Additional observations from a re-analysis of the deposited data

Results flagged for a closer look

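Among 70 groups of embryo values, 9 held an embryo far from the others of its group by Dixon's criterion, which chance alone meets in about 1 of 20 groups. In 8-cell embryo 2, which is 1 cell with long runs, chromosome 12 stood at -49.3 points relative to the cell's autosomes, its low-coordinate end at -49.8, chromosome 4 at -21.4 and the far end of chromosome 4 at -2.39. The runs of 30 Mb or more in this cell lie on chromosome 12 and not on chromosome 4. In 8-cell embryo 12 chromosome 9 stood at -27 points, and 1 of its 2 cells holds an unreplicated run of 121 Mb there. In 8-cell embryo 4 the window at chromosome 5 from 127000001 was 61.5% replicated, against at most 26.4% in the other 8-cell embryos, and the group still lay below all mEmb04C embryos.

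In the mEmb04C group chromosome 12 stood at 15.2 points in embryo 14, which is 1 cell, against at most 1.36 in the others. Embryo 13, the mean of 4 cells, was the lowest in 2 windows that were later at the 8-cell stage, with 79.2% at chromosome 4 from 152000001, where the other 4 embryos were at 100%, and 27.1% at chromosome 12 from 12000001, where they were at 58.3% or more.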

How the results depend on the processing

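No paired analysis was possible because each embryo belongs to 1 stage and embryo numbers name embryos only. The alternatives on domain size and agreement that were added after seeing the data are the joint removal of cells with long runs and adjustment for replicated percent, and the adjustment of the AUC; ends without the bins of long runs and the 8-cell set difference without those cells were added too. The count of 16 windows became 1 with cells of 40 to 60% replicated, 37 with 20 to 80%, 5 without the covariate, 33 in windows of 0.48 Mb, 5 in windows of 2 Mb, 61 with cells and the embryo as a random block, 2 against set DEP_01_162 alone, 26 against DEP_01_164 alone, 55 without cells with long runs, and 7 to 61 without 1 embryo (10 without 8-cell embryo 3). None of the 16 was called with 40 to 60%. Centred on the cell, 14 windows were called and 57.1% of them were later, against 68.8%. The 2 single ends became 0 with 40 to 60% and against DEP_01_162, where the smallest adjusted p a lone end could reach was 0.242 and 0.317, 6 against DEP_01_164 and 4 without the bins of long runs. With ends of 20 Mb both were lost and 1 other passed, the far end of chromosome 5 (adjusted p = 0.04). With ends of 5 Mb the count stayed at 2, with the low-coordinate end of chromosome 8 lost and the far end of chromosome 4 in its place (adjusted p = 0.04). It was 1 to 5 without 1 embryo (5 without 8-cell embryo 2, and 1 without mEmb04C embryo 9, 13 or 14 or 8-cell embryo 4). The count of chromosomes was 0 to 1 without 1 embryo (1 without mEmb04C embryo 14). The difference in state changes passed with 20 to 80% (13.2) and against DEP_01_164 (14.9), was 16.1 without cells with long runs and 16.7 with these removed and the replicated percent adjusted for, and was 8.52 to 13.3 without 1 embryo. In the same settings replicated runs differed by -0.186 and -0.223 Mb and unreplicated runs by -0.197 and -0.184 Mb. Removing cells by run length selects on these measures, so none of these values is read as a test. Unreplicated runs passed against DEP_01_164 (-0.222 Mb). The AUC difference was 0.0231 with 40 to 60%, 0.0289 against DEP_01_162 and 0.0236 to 0.052 without 1 embryo. The low-coordinate ends over all autosomes were at -1.08 against DEP_01_162 and 3.02 against DEP_01_164. The far ends were at 0.023 with 40 to 60%, 1.89 against DEP_01_162, -2.78 against DEP_01_164 and -1.63 to 0.246 without 1 embryo (0.246 without mEmb04C embryo 9). Chromosome X was at -3.41 against DEP_01_162. The causes of these shifts were not tested. The narrower range and the single sets also hold fewer embryos. Of the settings for named windows, chromosomes and ends, 519 kept direction and side of the threshold, 13 gained it, 128 lost it and 1, chromosome X, reversed. Read depth per cell is unknown.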
